A study of Tursiops truncatus with 28 samples.

Results

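Some loci of the bottlenose dolphin skin table were listed at exactly 0 in part of the animals and at a clear level in others. Such intermittent loci were chosen by their values: an interval of at least 200 bases off the mitochondrial sequence, listed at 0 in at least 5 of the 28 libraries and at 1 FPKM or more in at least 5. The rule found 515 loci among the 24091 of the table, or 2.21% of the 23269 nuclear loci of that length, on 131 scaffolds of the NIST Tur_tru v1 genome. That they hold zeros and clear levels follows from the rule and is given below as a description. Only differences between sessions and sexes in these values were tested.

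RNA was sequenced from archived skin of wild common bottlenose dolphins (Tursiops truncatus) of Barataria Bay, Louisiana, 1 library per animal. The libraries came from 9 females sampled in July 2016, from 3 males and 8 females sampled in June 2017, and from 3 males and 5 females sampled in September 2017. July 2016 held no male and differs from the later sessions in year and month together, which cannot be told apart. Ages, treatments and health states of single animals were not used.

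A locus here is a stretch of genome to which Cufflinks, the program named in the submitters' processing notes, assigned sequenced fragments. FPKM sets the fragments assigned to a locus against the length of its transcripts and the size of the library. It is meant to let loci of different length be set side by side. How well this holds at the shortest loci was not tested, and the worth of 1 fragment below was taken at 300 to 1500 bases. Skin is made of a keratinising epidermis over a dermis with fibroblasts, vessels, nerves and immune cells, and a biopsy holds a mixture of them. In such bulk tissue, fewer cells of a type and less RNA per cell cannot be told apart. A listed 0 is a weaker statement than a silent gene, since it can also be a failed estimate or depend on how fragments were divided among overlapping transcripts. The loci carry no gene names in the table, so they are given by scaffold and interval, with the first base counted as 1, and the genes and exons in them were not analysed here.

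Total reads per library are unknown, and the relative depth, measured from ratios of low values between libraries, lay between 0.762 and 1.48. One fragment on 1 kilobase of sequence was worth about 0.0493 FPKM at a relative depth of 1, the lower edge (1st percentile) of the lowest values above 0 per kilobase at 1477 loci of 300 to 1500 bases. Between 256 and 323 of the intermittent loci were above 0 in a library, with a median of 287. The lowest number was in July 2016 female 3, at a relative depth of 1.06, and the highest in September 2017 male 2, at 1.17. The shallowest library, June 2017 female 4 at 0.762, had 258 of them above 0, and the deepest, September 2017 female 1 at 1.48, had 307. Together these loci took between 0.0972% and 0.514% of the summed FPKM of a library, so they are a small part of the skin transcriptome in every animal.

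**Figure D1:**
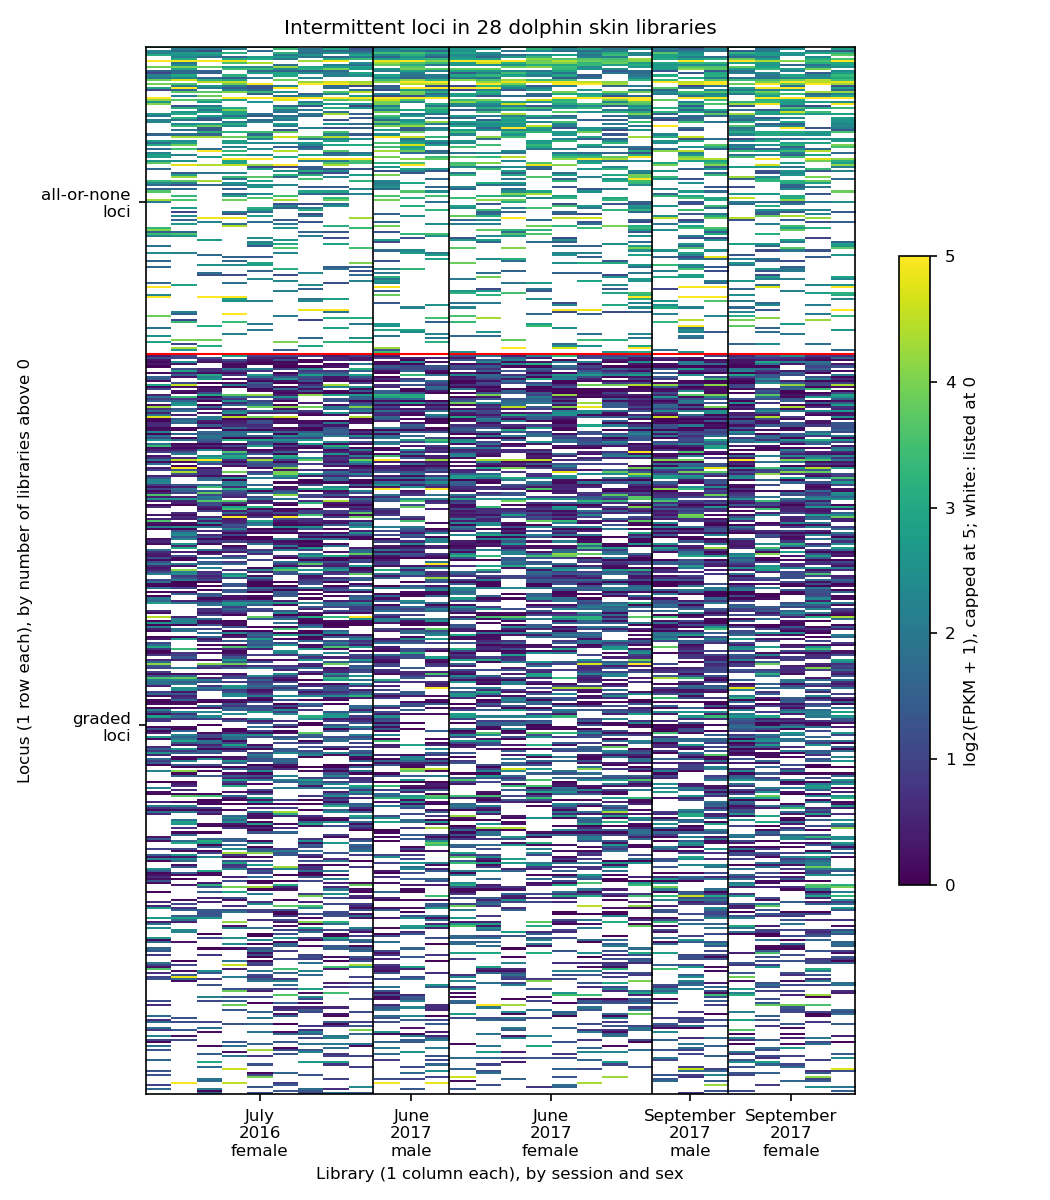
Level of the 515 intermittent loci (rows) in the 28 libraries (columns, by session and sex), as log2(FPKM + 1) capped at 5, with white where a locus was listed at 0. The 151 all-or-none loci above the red line go from white to green or yellow with few dark cells, while the 364 graded loci below it hold many dark cells near 0.

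The loci fell into 2 kinds. In 151 of them no library lay above 0 and under 1 FPKM, and these are called all-or-none below. The other 364 had at least 1 library in that range and are called graded. The division uses the same values as the rule and is a description. Among the all-or-none loci the lowest value above 0 had a median of 2.296 FPKM, with quartiles of 1.438 and 4.207. Among the graded loci it had a median of 0.1481 FPKM, with quartiles of 0.05028 and 0.4866, which is much nearer to the worth of single fragments. The highest value exceeded the lowest value above 0 by a median of 3.795 times in all-or-none loci and 50.27 times in graded loci. These contrasts follow in large part from the division itself. By definition the label "on in some animals, absent in others" fits the all-or-none loci as the table lists them. The graded loci also held values under 1 FPKM, some of them close to those of single fragments.

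All-or-none loci were above 0 in fewer animals, with a median of 11 of 28 libraries, against 18 for graded loci. Of the 103 loci above 0 in 5 to 9 libraries, 66 were all-or-none. Of the 206 above 0 in 10 to 18 libraries, 54 were, and of the 206 above 0 in 19 to 23 libraries, 31 were. A locus that is above 0 in few libraries has fewer chances of a value under 1 FPKM, so part of this division follows from the rule.

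**Figure D2:**
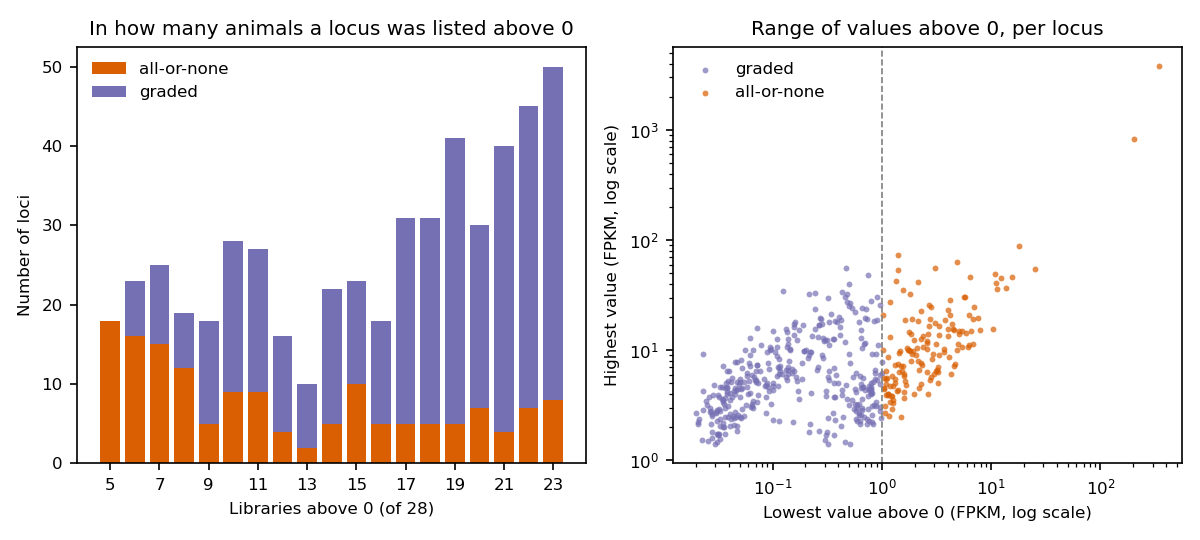
Left, number of intermittent loci (vertical axis) by the number of libraries, of 28, in which they were above 0, with all-or-none loci in orange and graded loci stacked on them in purple. Right, lowest value above 0 (horizontal, log scale) against highest value (vertical, log scale) in FPKM, 1 point per locus, with a dashed line at 1 FPKM that divides the kinds by definition. All 18 loci above 0 in exactly 5 libraries were all-or-none, because the rule needs 5 libraries at 1 FPKM or more.

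The thresholds cut through a continuous range of loci. Exactly 5 libraries at 0 were found in 50 of the 515, while 59 loci that met the other criteria had 4 libraries at 0 and stayed outside. Exactly 5 libraries at 1 FPKM or more were found in 92, while 145 loci stayed outside with 4. Just inside the first threshold lay NW_017844586.1:8141659-8145223, with a median of 27.46 FPKM over the 23 libraries above 0. Just outside lay NW_017843244.1:8160759-8162955, with a median of 1653 FPKM over 24 libraries and a highest value of 10898 FPKM. Both values exceed those of every intermittent locus, of which the highest were 1354 and 3820 FPKM. Also outside lay NW_017844458.1:2430256-2432938, with a median of 27.94 FPKM over 24 libraries. Just outside the second lay NW_017842840.1:1482209-1491766, with a median of 27.77 FPKM over 4 libraries and 0 in 24. Only 1 locus failed on length alone, NW_017844263.1:15984294-15984476 of 183 bases, which reached 80.76 FPKM and was above 0 in 15 libraries.

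Position relative to other loci was not part of the rule. Of the 151 all-or-none loci, 136 (90.1%) overlapped another locus of the table by at least 1 base. Of the 364 graded loci, 165 (45.3%) did. The same share was 26.8% over all 23269 nuclear loci, 25.1% over loci above 0 in all 28 libraries and 24.2% over loci at 0 in all 28. The share of the all-or-none loci thus stood far above that of loci which were steadily above 0 and of loci which were never above 0. The all-or-none loci made 170 pairs with overlapping loci. In 116 pairs the 2 intervals met at 1 end, in 32 the all-or-none locus lay inside the other, and in 22 it held the other. Over all 515 loci the overlapping share was 58.4%. Where 1 other locus had to cover at least 50% of the locus, it was 31.5%, with 34.4% of all-or-none and 30.2% of graded loci, against 11.1% of all nuclear loci. By that measure the 2 kinds lay close together, and both above all nuclear loci. The overlap was often slight, with 68 of the 170 pairs sharing under 10% of the all-or-none locus and a median of 1799 shared bases.

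The intermittent loci had a median interval length of 3537 bases, against 12277 bases over all nuclear loci and 4144 bases over loci at 0 in all 28 libraries, so short intervals were shared with loci that were never above 0. All-or-none loci had a median of 7311 bases and graded loci of 2047. Loci under 1000 bases made up 9.27% of the all-or-none and 27.5% of the graded loci, against 7.88% of all nuclear loci and 26.3% of those at 0 in all 28 libraries. Lengths ran from 221 bases to 318066 bases. The longest, NW_017843983.1:8842038-9160103, was a graded locus that overlapped no other and was above 0 in 22 libraries, between 0.2966 and 12.18 FPKM. The next longest, NW_017842794.1:34635246-34889639 of 254394 bases, was all-or-none and above 0 in 5 libraries, at 2.969 to 6.05 FPKM. Among the shortest, NW_017842814.1:11000914-11001140 of 227 bases was above 0 in 8 libraries, at 1.489 to 2.467 FPKM, while NW_017844625.1:52142908-52143139 of 232 bases was above 0 in 6 and reached 32.48 FPKM in July 2016 female 4. In the other 5 of those libraries it lay between 1.822 and 3.665 FPKM.

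No single scaffold held most of them. The scaffold with the most, NW_017842414.1, held 21 among 663 nuclear loci (3.17%). NW_017843712.1 held 20 among 598 (3.34%), NW_017842794.1 held 20 among 750 (2.67%) and NW_017844625.1 held 20 among 819 (2.44%). These shares lie near the 2.21% of the whole table.

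The most abundant all-or-none loci show the pattern in single animals. NW_017844411.1:27295920-27296140, the shortest of all at 221 bases, was above 0 in 20 libraries with a median of 1354 FPKM there. How far its level depends on this short length was not tested. Its values were 765.8, 485.4 and 828.6 FPKM in the June 2017 males, and 0, 1682 and 2657 FPKM in the September 2017 males. In the September 2017 females they were 0, 621.5, 2621, 3820 and 341.9 FPKM. The June 2017 females ran from 0 to 1927 FPKM with a median of 361.8, and the July 2016 females from 0 to 2892 FPKM with a median of 682.3. Every group but the June 2017 males therefore held both zeros and values above 300 FPKM. The locus lies inside NW_017844411.1:27191477-27300117, which was above 0 in all 28 libraries at 67.39 to 299 FPKM.

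The second, NW_017843193.1:685886-704575 of 18690 bases, overlapped no other locus and was the most abundant all-or-none locus of which that is true. It was above 0 in 6 animals of 3 groups, at 204.3, 369 and 318.7 FPKM in July 2016 females 1, 3 and 4, at 505.3 FPKM in June 2017 female 8, and at 295.8 and 820.9 FPKM in September 2017 males 2 and 3. In the other 22 libraries it was listed at 0. Around it, NW_017843193.1:670275-683343, 2542 bases away, was above 0 in 1 library at 0.07122 FPKM, and the all-or-none locus was above 0 there too. On the other side lay NW_017843193.1:705100-706146, 524 bases away. It held 0 to 2.221 FPKM where the all-or-none locus was above 0, and 0 to 0.2629 FPKM where that locus was at 0. Neither close neighbour passed 2.221 FPKM in any animal, while NW_017843193.1:734650-741086, 30074 bases away, held 105.6 to 268.1 FPKM in all 28 libraries. Further along the same scaffold 2 more intermittent loci overlapped each other, and they are described with the session differences.

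The remaining 8 of the 10 highest all-or-none loci had lower medians, and all 8 overlapped another locus. NW_017842414.1:66820598-66823210 was above 0 in 6 libraries, at 31.71 FPKM in June 2017 male 1, 29.71 and 54.54 FPKM in September 2017 males 2 and 3, 25.38 and 35.22 FPKM in September 2017 females 2 and 5, and 36.84 FPKM in July 2016 female 1. No June 2017 female had it above 0. It lies inside NW_017842414.1:66809486-66827027, which held 38.28 to 81.04 FPKM in all 28 libraries. NW_017844458.1:640126-640557 was above 0 in 6 females, at 27.7 to 34.99 FPKM in 5 of them and at 1.563 FPKM in September 2017 female 2. It lies inside a locus that never passed 0.7637 FPKM, so here the overlapping locus was the weak one.

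NW_017844169.1:25347271-25361429 was above 0 in 5 libraries, at 18.16 FPKM in June 2017 male 1, 87.92, 25.26 and 36.84 FPKM in June 2017 females 3, 5 and 8, and 18.88 FPKM in July 2016 female 2. No September library had it above 0. NW_017844458.1:3697929-3703227 was above 0 in 10 libraries at 13.63 to 36.53 FPKM, and NW_017844707.1:58650-66722 in 15 at 12.34 to 45.02 FPKM. NW_017844586.1:8141659-8145223 was above 0 in 23 libraries at 10.85 to 49.11 FPKM and overlapped the locus on either side of it, by 145 and 1859 bases. NW_017843052.1:16789-17780 was above 0 in 21 at 15.61 to 46.56 FPKM, and NW_017844299.1:2131309-2147419 in 21 at 11.18 to 40.99 FPKM. In each of these 6 loci the lowest value above 0 was thus over 10 FPKM.

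**Figure D3:**
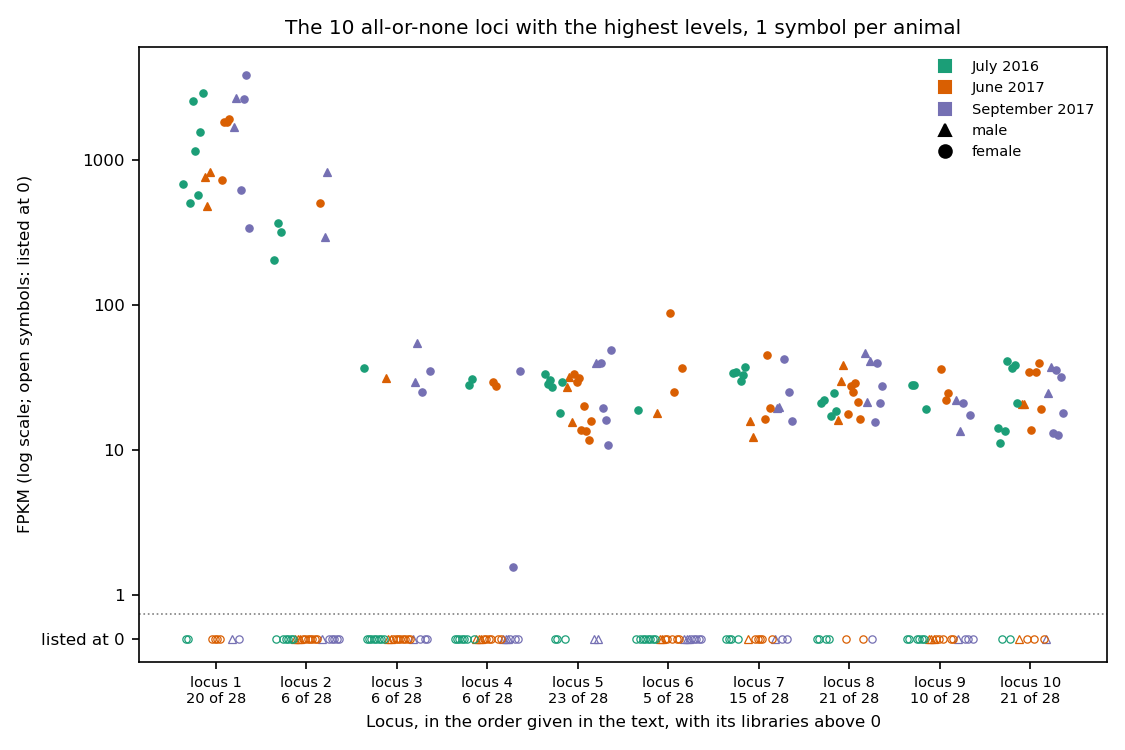
FPKM (vertical axis, log scale) in each of the 28 libraries of the 10 all-or-none loci with the highest median over libraries above 0, numbered in the order NW_017844411.1:27295920-27296140, NW_017843193.1:685886-704575, NW_017842414.1:66820598-66823210, NW_017844458.1:640126-640557, NW_017844586.1:8141659-8145223, NW_017844169.1:25347271-25361429, NW_017844707.1:58650-66722, NW_017843052.1:16789-17780, NW_017844458.1:3697929-3703227 and NW_017844299.1:2131309-2147419. Colours are sessions, triangles males and circles females, and open symbols on the bottom line are libraries listed at 0: between 0 and the lowest value above it, 9 of the 10 loci show a gap of more than 10 FPKM.

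Among loci in the middle of the range, above 0 in 14 of the 28 libraries, 3 had the highest medians. NW_017843657.1:12357170-12360504 held 11.22 to 35.75 FPKM where it was above 0, and NW_017843160.1:21839466-21856106 held 5.437 to 15.08 FPKM. NW_017844411.1:28381854-28382240, a graded locus of 387 bases that overlapped no other, was above 0 in 3 of 3 September 2017 males (8.929, 23.46 and 6.675 FPKM) and 3 of 5 September 2017 females (5.688, 6.623 and 8.8 FPKM). In July 2016 it was above 0 in 2 of 9 females, at 14.25 and 0.5252 FPKM. None of these 3 loci was called in any comparison below.

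For the 131 all-or-none loci that overlapped a locus above 0 in all 28 libraries, the levels of the 2 were set side by side. Over 148 such pairs, Spearman's rho across the 28 libraries was below 0 in 119, or 80.4%, with a median of -0.169. With the nearest locus that did not overlap, also above 0 in all 28 libraries, rho was below 0 in 70 of 150 pairs (46.7%), with a median of 0.016. Most overlapping pairs thus leaned towards opposite ranks, but weakly, with quartiles of rho of -0.362 and -0.023. The share below 0 does not show opposite ranks in each pair. These are descriptions over 28 shared libraries and both values of a pair share the depth and scaling of their library. Pairs are not independent, and no p is given.

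By kind of overlap, rho was below 0 in 86 of 105 pairs that met at 1 end (81.9%, median -0.206), in 25 of 31 in which the all-or-none locus lay inside the other (80.6%, median -0.105) and in 8 of 12 in which it held the other (66.7%, median -0.033). In graded loci rho was below 0 in 88 of 147 overlapping pairs (59.9%, median -0.054): 47 of 64 that met at 1 end (73.4%, median -0.122), 37 of 72 in which the graded locus lay inside the other (51.4%, median -0.001) and 4 of 11 in which it held the other (36.4%, median 0.027). Among pairs that met at 1 end the graded loci were thus nearer to the all-or-none ones than over all pairs. With the nearest locus that did not overlap, rho of graded loci was below 0 in 158 of 360 pairs (43.9%, median 0.033). Pairs of overlapping loci that were both above 0 in all 28 libraries had rho below 0 in 460 of 1129 (40.7%, median 0.049). The libraries were directional, but the use of strand in assigning fragments is not stated. How fragments in the shared stretches were divided is therefore not known, and its part in the zeros was not tested.

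**Figure D4:**
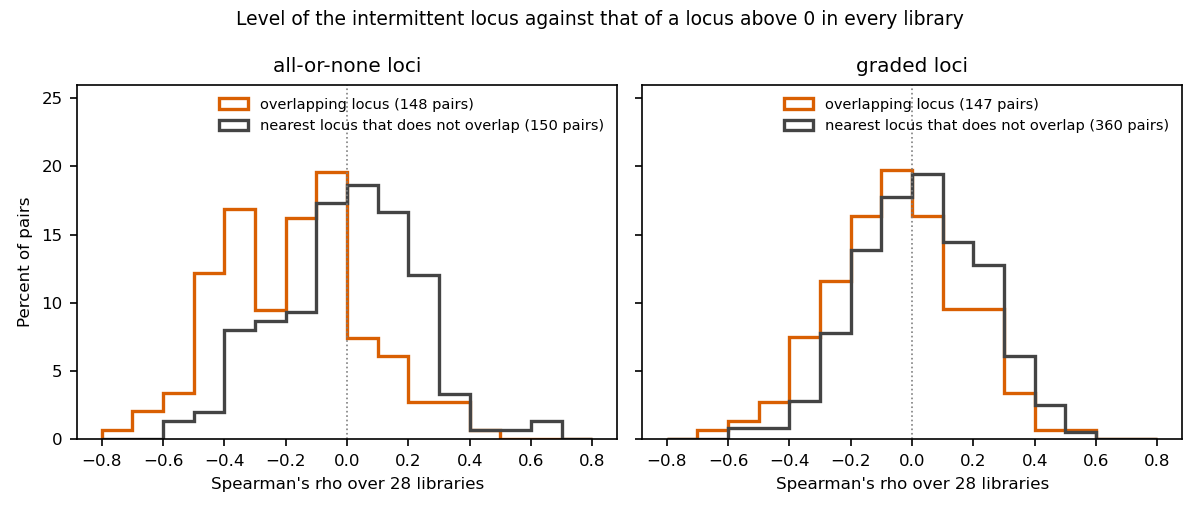
Percent of pairs (vertical axis) by Spearman's rho over the 28 libraries (horizontal axis, bins of 0.1), for the overlapping locus in orange and the nearest locus that does not overlap in grey, with all-or-none loci on the left and graded loci on the right. For all-or-none loci the orange outline lies mostly left of 0 (80.4% of 148 pairs), and the grey one is centred near 0 (46.7% of 150 pairs below 0).

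The pairs with the lowest and highest rho among the 10 loci described above show the range. NW_017844299.1:2131309-2147419 shared 186 bases with NW_017844299.1:2147234-2271354, which held 15.33 to 27.68 FPKM in all 28 libraries, and rho was -0.774. NW_017844411.1:27295920-27296140 and the locus around it had a rho of 0.48. NW_017843052.1:16789-17780 shared 4 bases with its neighbour and had a rho of 0.018. At each of these loci the libraries at 0 share 1 rank.

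In 3 cases both overlapping loci were intermittent. NW_017842794.1:34520839-34638634 and NW_017842794.1:34635246-34889639 share 3389 bases. Exactly 1 of them was above 0 in 17 libraries, both were in 3 and neither in 8. NW_017843712.1:40121795-40196043 holds NW_017843712.1:40135738-40145365 whole, and exactly 1 was above 0 in 18 libraries, both in 3 and neither in 7. NW_017843193.1:754898-771383 and NW_017843193.1:767967-780518 share 3417 bases, and there both were above 0 in 16 libraries, exactly 1 in 10 and neither in 2. In the first and second pair exactly 1 locus was thus above 0 in most animals, and in the last pair both were.

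No pair of intermittent loci had the same set of zeros. Over 132355 pairs of intermittent loci, both were above 0 or both at 0 in a median of 14 of the 28 libraries, and the most was 27. The closest match on different scaffolds was NW_017842814.1:7356908-7433018 with NW_017843491.1:12-2107, which matched in 27 libraries and differed in July 2016 female 7. NW_017842275.1:8798278-8851218 and NW_017842545.1:1321747-1329177 also matched in 27 and differed in June 2017 female 5. On a shared scaffold the closest were NW_017843255.1:1423771-1424401 and NW_017843255.1:16245729-16246148, which matched in 25. These are the top of a long list of pairs and are given as a description.

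Animals of the same session and sex were about as alike in these loci as animals of different sessions. Libraries of the same session and sex shared the state, above 0 or at 0, of a median of 57.8% of the loci over 80 pairs, and libraries of different sessions of 57.3% over 259 pairs. The range over all 378 pairs was 49.3% to 66.2%. The number of all-or-none loci above 0 was 68.67 ± 8.14 in June 2017 males (SD, n = 3), 67 ± 8.14 in June 2017 females (n = 8), 69 ± 13.1 in September 2017 males (n = 3), 68.8 ± 8.79 in September 2017 females (n = 5) and 59.33 ± 5.98 in July 2016 females (n = 9). The groups overlapped, with 58 to 83 in June 2017 females and 51 to 69 in July 2016 females. No test was run on these counts.

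Differences between sessions and sexes were tested across the 13192 loci that averaged 1 FPKM or more, by limma on log2(FPKM + 1) with session and sex in the model and Benjamini-Hochberg adjustment over all of them. The filter kept 283 of the 515 intermittent loci, 118 all-or-none and 165 graded. A locus that passed only because 1 session was high was in part chosen for a difference, so the counts are not read as a property of the set. Between June 2017 and July 2016, 7.24% of all tested loci were called at an adjusted p under 0.05. Of the 283 intermittent loci, 11 were (3.89%), 9 higher (3.18%) and 2 lower (0.707%) in June 2017, beside 2.18% and 5.06% of all tested loci. The share called higher was thus somewhat over that of all tested loci, and the share called lower and the total were under it. None of these shares is read as a result about these loci. Their differences were larger but much less certain: the median size of the log2 difference was 0.469 in them and 0.160 over all loci, with median standard errors of 0.523 and 0.142. Of the called loci, NW_017843712.1:40135738-40145365 and NW_017843303.1:213114-246107 averaged under 1 FPKM in July 2016 (0.6346 and 0.9851) and September 2017 (0.8704 and 0.7433). NW_017842794.1:37755471-37755971 averaged 0.3282 FPKM in June 2017 and 0.8824 in September 2017. These passed the filter only through 1 session, so their calls are not independent of the filter.

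The largest rise was at NW_017843879.1:10469066-10597095, a graded locus of 128030 bases. In June 2017 it held 0.8859, 5.075 and 3.741 FPKM in the males and 2.578 FPKM or more in the females (median 5.062), against 0 in 8 of the 9 July 2016 females and 6.049 FPKM in female 4. In September 2017 the males were at 0 and the females at 0, 2.742, 2.621, 3.736 and 0 FPKM. The locus averaged 0.6721 FPKM in July 2016, 1.137 in September 2017 and 4.507 in June 2017, so it passed the filter mainly through June 2017. By limma it was 2.27 higher on the log2 scale in June 2017 than in July 2016 (SE 0.361, adjusted p = 0.000348). It shares 41 bases with NW_017843879.1:10597055-10650461, which differed by -0.06 (SE 0.12, adjusted p = 0.837).

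NW_017843193.1:767967-780518, an all-or-none locus, was above 0 in every June 2017 library, at 12.69, 8.044 and 3.251 FPKM in the males and 4.569 to 9.159 FPKM in the females. In July 2016 it was above 0 in 4 of 9 females, at 2.524 to 4.358 FPKM. The log2 difference was 1.915 (SE 0.375, adjusted p = 0.00243, limma). In September 2017, 7 of 8 libraries were above 0 (median over all 8, 4.384 FPKM). The intermittent locus that overlaps it, NW_017843193.1:754898-771383, held 0 to 14.79 FPKM in June 2017 and 0 to 20.9 FPKM in July 2016, and its log2 difference of -0.90 was not called (SE 0.784, adjusted p = 0.556, limma).

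NW_017843712.1:40135738-40145365 was above 0 in 10 of 11 June 2017 libraries, at 5.739, 1.549 and 4.816 FPKM in the males and 0 to 5.799 FPKM in the females. In July 2016 it was above 0 in 3 of 9 females, at 1.457 to 2.641 FPKM. The log2 difference was 1.59 (SE 0.388, adjusted p = 0.0127, limma). The 2 sessions overlapped, since June 2017 female 5 was at 0.

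NW_017842814.1:7356908-7433018 was above 0 in all June 2017 libraries, at 17.82, 11.43 and 9.267 FPKM in the males and 5.842 to 24.59 FPKM in the females, against 0 to 19.76 FPKM in July 2016 females, of which 5 of 9 were at 0. The log2 difference was 2.12 (SE 0.543, adjusted p = 0.0171, limma). This locus shares 193 bases with NW_017842814.1:7314418-7357100, at 63.08 to 120.4 FPKM in all 28 libraries, and that locus was itself called the other way, at -0.50 on the log2 scale (SE 0.086, adjusted p = 0.000651). The same opposite calls were seen at NW_017844458.1:27157611-27255639, a graded locus above 0 in all 11 June 2017 libraries (2.095 to 4.126 FPKM, median 2.94) and in 6 of 9 in July 2016 (0 to 2.826 FPKM, median 1.001). It rose by 1.14 on the log2 scale (SE 0.327, adjusted p = 0.0306, limma). NW_017844458.1:27255085-27271214, with which it shares 555 bases, fell by 0.67 (SE 0.125, adjusted p = 0.00155, limma). These were the 2 called among 9 tested loci that overlap an intermittent locus called between these sessions. Of the 9, 7 had a log2 difference below 0 and 2 above 0, and the 7 that were not called included differences of -0.17, -0.02 and 0.30. Another 4 overlapping loci were under the filter and had no test.

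The other 4 rises were NW_017843303.1:213114-246107 (log2 difference 1.17, SE 0.322, adjusted p = 0.0245, limma), NW_017843491.1:12-2107 (1.56, SE 0.431, adjusted p = 0.0253), NW_017843712.1:26848035-26898424 (1.50, SE 0.44, adjusted p = 0.0353) and NW_017842512.1:2049168-2074850 (1.87, SE 0.57, adjusted p = 0.0425). The first was above 0 in 10 of 11 June 2017 libraries and 5 of 9 July 2016 libraries, the second in 11 and 5, the third in 9 and 3 and the fourth in 9 and 4. The first held 0 to 4.397 FPKM in June 2017 (median 3.207) and 0 to 2.891 FPKM in July 2016 (median 1.05), and the second 0.3376 to 18.16 FPKM in June 2017 (median 2.671) and 0 to 4.188 FPKM in July 2016 (median 0.3306). The third held 0 to 14.1 FPKM in June 2017 (median 4.763) and 0 to 3.883 FPKM in July 2016 (median 0), and the fourth 0 to 16.57 FPKM in June 2017 (median 6.25) and 0 to 5.385 FPKM in July 2016 (median 0). At all 4 the sessions overlapped. In September 2017 the third was above 0 in all 8 libraries, at 2.425 to 9.302 FPKM, and its log2 difference from July 2016 was 1.77 (SE 0.488), with an adjusted p of 0.0529 by limma that missed the threshold.

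Both loci that fell were graded. NW_017842696.1:41608860-41754494 held 0, 2.959 and 2.395 FPKM in June 2017 males and 0 to 7.832 FPKM in June 2017 females, 5 of 8 of them at 0, against 2.217 to 6.309 FPKM in July 2016, when all 9 females were above 0. The log2 difference was -1.54 (SE 0.397, adjusted p = 0.0176, limma). NW_017842794.1:37755471-37755971, a locus of 501 bases that overlapped no other, held 0 to 1.374 FPKM in June 2017 (median 0.205, 11 libraries) and 0.5737 to 6.689 FPKM in July 2016 (median 0.6641, 9 libraries). Its log2 difference was -1.22 (SE 0.351, adjusted p = 0.0314, limma). In July 2016, 4 females lay between 4.408 and 6.689 FPKM and 5 between 0.5737 and 0.6641 FPKM.

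Of these 11 calls, 5 were kept when any 1 library was left out, and the others were lost without at least 1. The call of NW_017843303.1:213114-246107 was lost without July 2016 female 5 (log2 difference 1.07, adjusted p = 0.0504, limma), and that of NW_017843491.1:12-2107 without June 2017 female 1 (1.35, adjusted p = 0.0553) or female 6 (1.31, adjusted p = 0.0542). NW_017844458.1:27157611-27255639 was lost in 4 of 28 such fits, NW_017842794.1:37755471-37755971 in 6, NW_017843712.1:26848035-26898424 in 11 and NW_017842512.1:2049168-2074850 in 15. Other settings ended some of the same calls. With a pseudocount of 0.1, NW_017843303.1:213114-246107 (adjusted p = 0.0625, limma), NW_017844458.1:27157611-27255639 (0.0698) and NW_017842512.1:2049168-2074850 (0.0724) were lost. In females alone, NW_017844458.1:27157611-27255639 (adjusted p = 0.0501, limma), NW_017843712.1:26848035-26898424 (0.0825) and NW_017842512.1:2049168-2074850 (0.0589) were lost. With only the sessions compared, the last 2 were lost, at 0.111 and 0.132, and with no filter on low values also, at 0.0575 and 0.0651. With relative depth as a covariate NW_017842794.1:37755471-37755971 was lost (0.0575). Without June 2017 female 1 the count of calls was 6. Of the 11, 9 overlap another locus, so 2 were called when overlapping loci were left out.

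**Figure D5:**
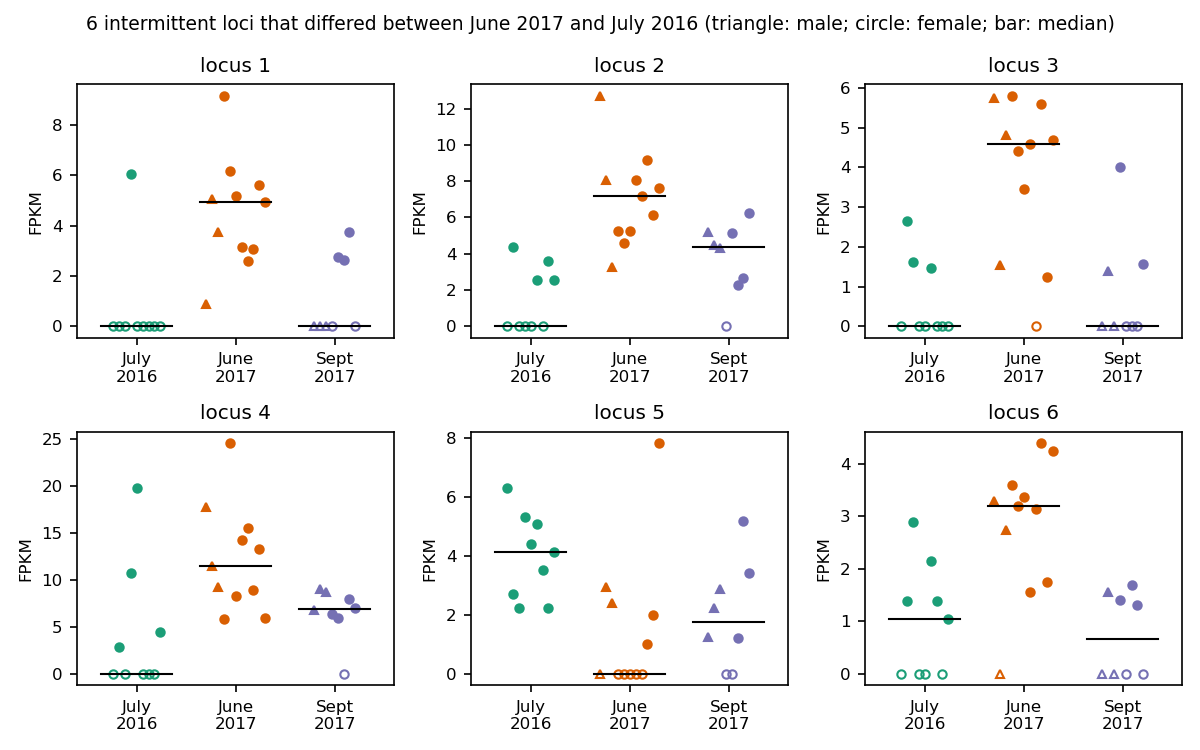
FPKM (vertical axes) by session of 6 intermittent loci called between June 2017 and July 2016, in the order NW_017843879.1:10469066-10597095, NW_017843193.1:767967-780518, NW_017843712.1:40135738-40145365, NW_017842814.1:7356908-7433018, NW_017842696.1:41608860-41754494 and NW_017843303.1:213114-246107, with 1 symbol per animal (triangles males, circles females, open at 0) and a bar at the median. At 4 of the 5 loci that rose, the July 2016 median is 0, and June 2017 is above 0 in at least 10 of 11 libraries at all 5.

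Between September 2017 and July 2016, 1.95% of all tested loci were called, and 2 of the 283 intermittent loci (0.707%) were, 1 higher and 1 lower in September 2017, beside 0.652% and 1.3% of all loci. NW_017844429.1:62033797-62034400, a graded locus of 604 bases, held 0.1107, 3.753 and 0.1956 FPKM in September 2017 males and 2.526, 0, 3.881, 8.912 and 4.168 FPKM in September 2017 females, against 0 to 0.2379 FPKM in July 2016 females, 7 of 9 of them at 0. The log2 difference was 1.80 (SE 0.418, adjusted p = 0.0213, limma). The locus averaged 0.03907 FPKM in July 2016 and 0.8353 in June 2017, so it passed the filter only through September 2017. Leaving out September 2017 female 3, 4 or 5 lost this call. NW_017844293.1:9559851-9560265, an all-or-none locus of 415 bases, held 7.517, 22.44 and 0 FPKM in September 2017 males and 0 in all 5 September 2017 females, against 0 to 23.62 FPKM in July 2016 females (median 13.73), 7 of 9 of them above 0. It fell by 3.20 on the log2 scale (SE 0.838, adjusted p = 0.0435, limma), and this call was lost in 15 of the 28 fits that left out 1 library and in 6 of 8 other settings, with adjusted p-values from 0.0509 to 0.0887.

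Between September and June 2017, limma called 5 of the 13192 loci (0.0379%) and none of the 283 intermittent loci, of which 28 (9.89%) had an unadjusted p under 0.05, beside 12% of all loci. The largest June 2017 rise, NW_017843879.1:10469066-10597095, had a log2 difference of -1.51 between September and June 2017 (SE 0.359, adjusted p = 0.0708, limma). Between males and females, limma called 12 loci (0.091%) and none of the intermittent ones, of which 16 (5.65%) had an unadjusted p under 0.05, beside 4.85% of all loci. The comparisons share libraries, so their values are given each on its own.

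The zeros themselves were compared with Fisher's exact test on the number of libraries above 0 and at 0, over 3232 nuclear loci with at least 5 libraries of each kind and with females alone for the sessions. For the sexes all sessions were pooled, and July 2016 held females only, so sex is partly mixed with session there. No intermittent locus of the 515 passed an adjusted p of 0.05 in any of the 4 comparisons. Over all loci tested, 1 passed between males and females (0.0309%) and 0 between sessions (0%). At an unadjusted p under 0.05 there were 24 between June 2017 and July 2016 (4.66%, beside 4.42% of all loci tested), and 10 (1.94%) in each of the others, beside 2.41% between September 2017 and July 2016, 2.13% between September and June 2017 and 2.17% between males and females. The groups are small for this test. Between 8 June 2017 and 9 July 2016 females the smallest possible p was 4.11e-05, and 3 loci would have had to reach it to pass. Between September 2017 and the other sessions 33 or more loci would have had to, so these counts of 0 say little.

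The lowest p between sessions was at NW_017843879.1:10469066-10597095, above 0 in 8 of 8 June 2017 females and 1 of 9 July 2016 females (Fisher's exact test, p = 0.000411, adjusted p = 0.665). NW_017842470.1:487990-495753 was above 0 in 5 of 5 September 2017 females, against 1 of 9 July 2016 females (exact p = 0.003, adjusted p = 1) and 2 of 8 June 2017 females (exact p = 0.021, adjusted p = 1). The September 2017 males, who were not in this test, had it above 0 in 1 of 3. Between the sexes NW_017842383.1:438464-440689 was above 0 in 2 of 6 males and 21 of 22 females (exact p = 0.00342, adjusted p = 1). NW_017842414.1:28685739-28758795 and NW_017844527.1:6109406-6110822 were each above 0 in 1 of 6 males and 18 of 22 females (exact p = 0.00658, adjusted p = 1). All 6 males were sampled in 2017, while 9 of the 22 females were sampled in July 2016. At each of the loci named between the sexes, 8 of these 9 females were above 0. Sex and session are thus not separated in these counts.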

How the data were processed

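RNA-seq of skin from 28 dolphins was analysed from 1 deposited table of 24091 loci. Per the labels' protocols, total RNA was extracted with a lipid tissue kit and DNase digestion, and directional libraries were made. Per the submitters' processing notes, the tools include Cufflinks 2.2.1, TopHat2 2.1.1, Trimmomatic 0.33, FastQC 0.1 and Bowtie. No source at hand states their settings, the annotation or the use of strand. The deposited values were taken as FPKM made by the authors, from the Cufflinks step and the values themselves. The table does not name its unit. An exact 0 can be a failed estimate, so it is written as listed at 0. No gene names could be matched and no sequence of this build was used, so 0 loci have a name and no sequence is printed.

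The loci and lists were chosen with earlier results of these data known. Named loci are the 10 all-or-none loci with the highest median over libraries above 0, up to 10 called loci per comparison with the smallest adjusted p (all 11 are given for June 2017 against July 2016), the closest pairs in state, 3 loci above 0 in 14 libraries, the 3 longest and 3 shortest (in part), and loci at the thresholds. A further set, pairs of which exactly 1 is above 0 in most libraries, was tied at 23 libraries in 21 pairs, so the 3 pairs of overlapping intermittent loci were described instead, chosen after their values were seen, as were the other loci singled out by the lowest Fisher's p.

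Values were taken as log2(FPKM + 1), which understates changes at low levels. All loci that averaged 1 FPKM or more were fitted with limma 3.58.1 in R 4.3.3 (session and sex additive, trend and robust settings, 24 residual degrees of freedom, two-sided). Fisher's exact tests were two-sided (scipy 1.17.1). The Benjamini-Hochberg adjustment ran over every locus tested. Both scripts were checked on simulated data, for limma without exact zeros and for Fisher's exact test between males and females only. The limma check thus does not cover loci with many zeros, nor the Fisher check the sessions. Relative depth came from 4754 loci with a mean under 0.5 FPKM: in 100% of 378 library pairs it lay within 0.05 (log2) of the measured ratio. Groups came from sampling date and sex. The title of July 2016 female 6 gives another year than its date, and the date was used. Each library is a different animal, so p-values measure the spread between animals. Figures were drawn with matplotlib 3.10.9.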

Additional observations from a re-analysis of the deposited data

Results flagged for a closer look

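In 74 sets of values, 13 had 1 library far from the others (Dixon's criterion). Each set was a named locus, or a count of loci above 0, in the females of 1 session. The 13 were all named loci. Chance flags about 1 in 20 such sets when values are normal, and loci with many zeros are flagged more readily, since 1 library above 0 among zeros always is. Among the highest all-or-none loci, NW_017843193.1:685886-704575 was at 505.3 FPKM in June 2017 female 8 and 0 in the other June 2017 females. NW_017842414.1:66820598-66823210 was at 36.84 FPKM in July 2016 female 1 and 0 in the other July females. NW_017844458.1:640126-640557 was at 34.99 FPKM in September 2017 female 5, with the next at 1.563. NW_017844169.1:25347271-25361429 was at 18.88 FPKM in July 2016 female 2, alone above 0, and at 87.92 FPKM in June 2017 female 3, with the next at 36.84. NW_017844707.1:58650-66722 was at 45.02 FPKM in June 2017 female 6, with the next at 19.59.

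Among the loci called between sessions, NW_017843879.1:10469066-10597095 was at 6.049 FPKM in July 2016 female 4 and 0 in the other July females. NW_017842814.1:7356908-7433018 was at 0 in September 2017 female 3, with the next lowest at 5.954 FPKM. NW_017842696.1:41608860-41754494 was at 7.832 FPKM in June 2017 female 8, against 1.98 in the next, and so went against the fall of its session. NW_017843491.1:12-2107 was at 4.188 FPKM in July 2016 female 2 (next 1.68), NW_017842794.1:37755471-37755971 at 4.354 FPKM in September 2017 female 4 (next 0.667), NW_017843712.1:26848035-26898424 at 3.883 FPKM in July 2016 female 8 (next 1.895) and NW_017844429.1:62033797-62034400 at 0.2379 FPKM in July 2016 female 1 (next 0.1138). July 2016 females 1 and 2 and June 2017 female 8 each stood highest in 2 of these sets, and 6 other libraries in 1. Causes were not tested.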

How the results depend on the processing

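Between June 2017 and July 2016, 11 intermittent loci were called, 2 when overlapping loci were left out, and 6 to 14 with 1 library left out. Between September 2017 and July 2016, 2 were called, and 1 with females alone, with a pseudocount of 0.1, with relative depth as a covariate or without the library whose title year differs. Both called loci overlap another locus, so leaving overlapping loci out removed them from the test, and none was called there. With 1 library left out, 0 to 3 were called between these sessions, and 0 without September 2017 female 3, 4 or 5. The number was 1 without July 2016 female 3, 4, 6 or 7, June 2017 male 1, September 2017 female 1 or 2, or September 2017 male 3. Between September and June 2017 the range was 0 to 1 (1 without July 2016 female 4), and between males and females 0 to 1 (1 without June 2017 male 2). Fisher's exact test gave 0 under each alternative run, in groups mostly too small to pass. The 13 called differences had 470 values under alternatives: 393 kept direction and call, 77 kept direction but missed the threshold, and 0 reversed. The cause of these losses was not tested.

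The rule gave 515 loci, 270 with 7 libraries in place of 5 and 316 with 2 FPKM in place of 1. The overlapping share of 58.4% was 31.5% when 1 other locus had to cover 50% or more of the locus. The 80.4% of all-or-none pairs with rho below 0 was 73% in females alone, and 75.7% to 81.1% under 4 other alternatives, all chosen after seeing the data. No paired analysis was possible because each library is a different animal, and replicate numbers, given in accession order, link no libraries. Depth in reads is unknown and a listed 0 can be a failed estimate, so no upper limit was set on the zeros.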
